A study of Sus scrofa with 21 samples.

Results

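The sodium-potassium pump (Na,K-ATPase) and the proton-potassium pump (H,K-ATPase) are related ion pumps of the plasma membrane. Each is built of a catalytic alpha subunit, which splits ATP, and a glycosylated beta subunit, which the alpha subunit needs to fold and reach the membrane. The Na,K-ATPase moves sodium out of the cell and potassium into it, and the gradient it builds drives sodium-coupled exchange of protons, calcium and bicarbonate. In testis, ATP1A4 is the alpha subunit known from male germ cells and sperm, where it is needed for motility. The H,K-ATPases are best known for the acidification of the stomach, and ATP12A is the form found outside it.

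The genes described here are the 7 subunits ATP1A4, ATP1B1, ATP1B2, ATP1B3, ATP4A, ATP4B and ATP12A, chosen by gene symbol among the 25880 genes of the counts. A row was found for 5 of the 7, and ATP1A4 and ATP1B3, for which no identifier was paired with a row, are not analysed here. The data were testis RNA of 21 boars used for artificial insemination, 13 Landrace and 8 Duroc, with 1 library per boar. Boars had been picked for extremes of sperm hyperactivity, the vigorous beating that sperm show before fertilization, so the groups do not represent the middle of either breed. Tissue was taken at slaughter, after the semen had been measured, and the labels give no treatment and no age.

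In contrast (i), 4 Landrace boars with high hyperactivity on day 0 (L5, L6, L7 and L8) were set against 4 with low hyperactivity (L1, L2, L3 and L4). In contrast (iii), 3 Landrace boars whose hyperactivity changed much during 96 h of semen storage at 18 °C (L7, L13 and L15) were set against 4 in which it changed little (L2, L9, L10 and L12). The contrasts share L2 and L7, so they are not independent. In contrast (ii), 5 Duroc boars labelled High (D1 to D5) were set against 3 labelled Low (D6, D7 and D9). Groups are those of the deposited labels. The study's list of boars places these Duroc names, other than D5, in the opposite group, but the names in it cannot be those of the same libraries. D2 and D3 held 84446404 and 125576407 reads counted on genes, more than the sequencing depths listed under those names, and a depth that could hold the reads of D3 is listed for a high boar only.

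The libraries held 41358671 to 125576407 reads counted on genes, with a median of 58530621. Levels are given as CPM (read count scaled to library size) after scaling by the TMM method (trimmed mean of M-values) over all 21 libraries. No transcript lengths were used, so levels are compared between boars and never between genes. Germ cell markers were plentiful, with the spermatid gene TNP1 at 3310 to 7900 CPM, and Sertoli cell markers were present except AMH, which was at 0 in every library. In whole tissue, fewer cells of a type and less RNA per cell cannot be told apart.

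ATP1B1 (ENSSSCG00000006296, chromosome 4 from 81912543 to 81937015) encodes the widespread beta 1 subunit of the Na,K-ATPase. ATP1B2 (ENSSSCG00000017951, chromosome 12 from 52925697 to 52932638) encodes the beta 2 subunit, best known from glia as an adhesion molecule. ATP4A (ENSSSCG00000002902, chromosome 6 from 44984014 to 45057796) encodes the gastric H,K-ATPase alpha subunit and ATP4B (ENSSSCG00000009561, chromosome 11 from 78780013 to 78785143) its beta subunit. ATP12A (ENSSSCG00000022638, chromosome 11 from 113901 to 144765) encodes the nongastric alpha subunit. These positions are those of RefSeq on Sscrofa11.1.

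ATP1B1, ATP1B2 and ATP4A had at least 1 CPM in at least 8 of the 21 libraries and were tested. ATP12A had 7 to 89 reads per library and passed only with a filter of 0.3 CPM. ATP4B, the partner that ATP4A has in the stomach, had 2 reads in all, 1 in L13 and 1 in D4. It had 0 reads in every other library, which allows up to 0.024 to 0.0664 CPM by counting error alone (3 counts), depending on the library.

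ATP1B1 varied the most of the tested subunits over all boars, through L13. Over all 21 boars its level ranged from 18.98 to 97.29 CPM, with a coefficient of variation of 46.8%, against a median of 24.4% over all tested genes. The highest value was that of L13, and the next was 55.04 CPM in D2. ATP4A varied by 40.9% and ATP1B2 by 27.8%. Without L13 the coefficients were 29.4% for ATP1B1, 36.9% for ATP4A and 27.8% for ATP1B2, against a median of 22.7%, so that ATP4A then varied the most. Within the 8 Duroc boars the coefficients were 29.9% for ATP1B1, 24.4% for ATP4A and 24.3% for ATP1B2, against a median of 22.4%.

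**Figure D1:**
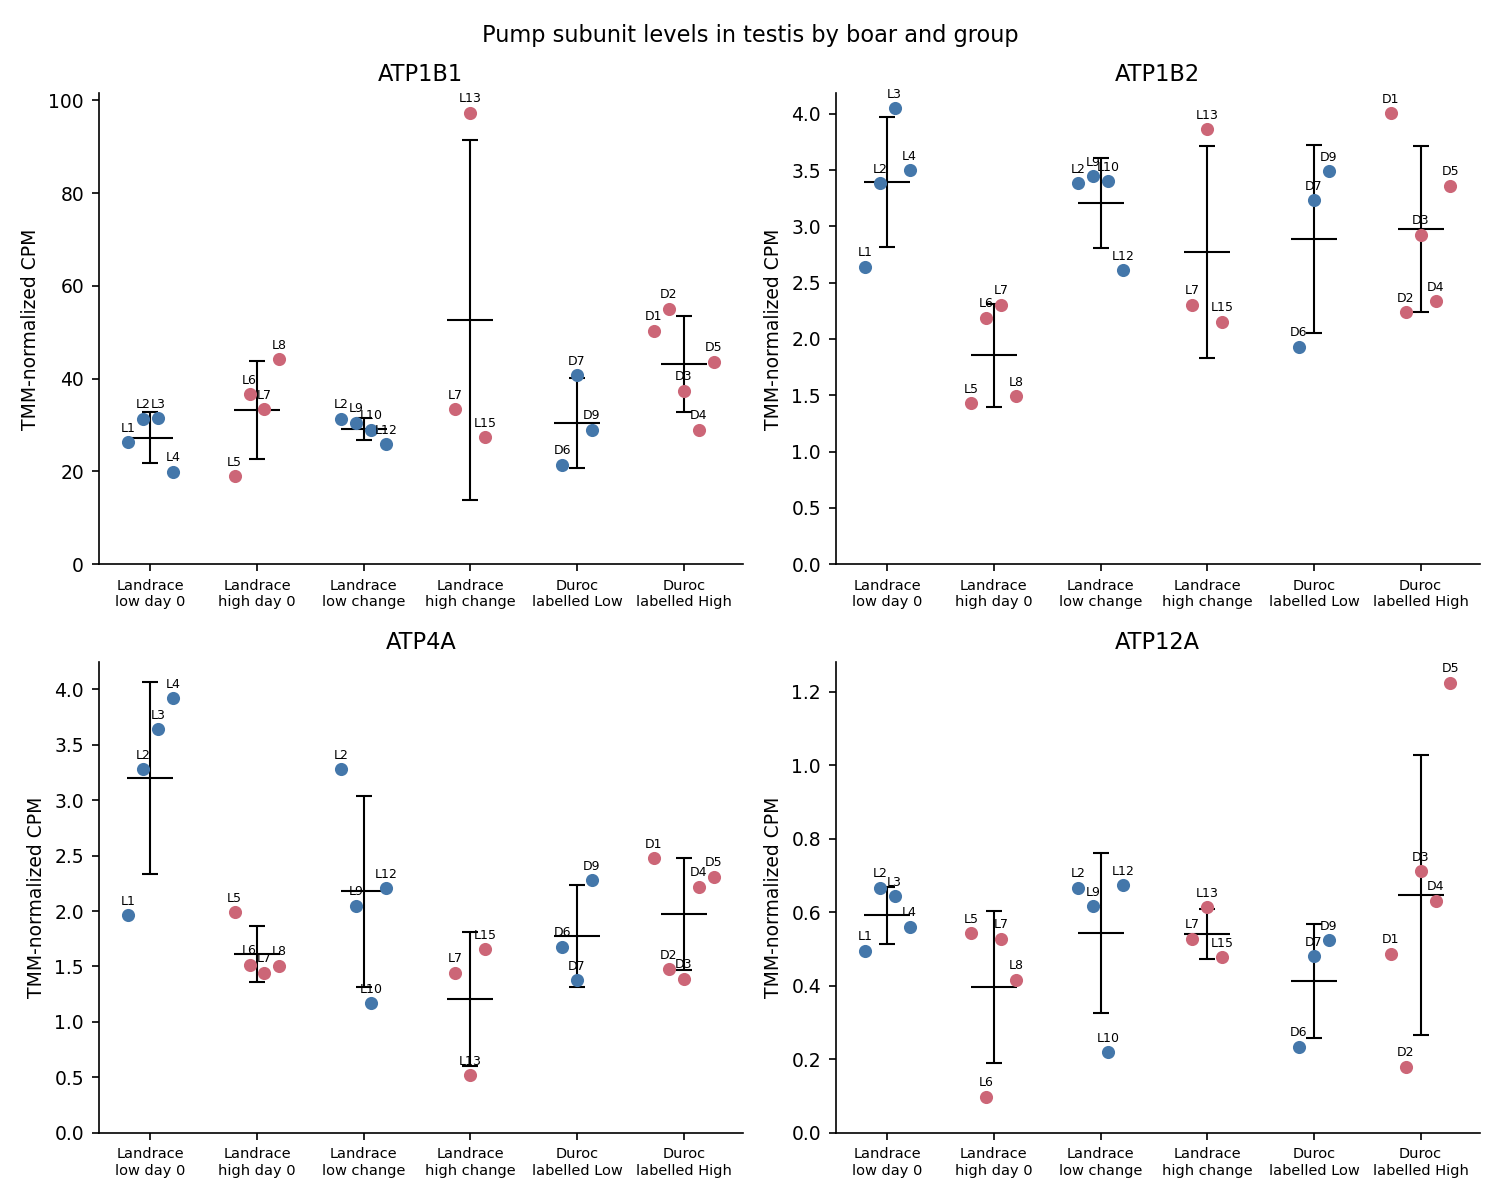
TMM-normalized CPM of ATP1B1, ATP1B2, ATP4A and ATP12A (y axes, linear) in each boar, by group (x axis), with the mean and SD as bars and blue for low and red for high groups; L2 and L7 appear in a group of each Landrace contrast. ATP1B2 in the high day 0 boars lay at 1.43 to 2.31 CPM, below all low day 0 boars, and ATP1B1 in L13 stood at 97.29 CPM.

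In contrast (i), both ATP1B2 and ATP4A were lower in the boars with high hyperactivity at day 0. Their levels were 0.55 and 0.51 times those of the low boars, while ATP1B1 and ATP12A did not pass the test. As background, edgeR's quasi-likelihood test called 20.7% of the 12979 genes in this contrast at an adjusted p under 0.05, and 15.8% were lower in the high boars. Among the 3 tested subunits, 2 were called, both lower.

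ATP1B2 was at 1.43 CPM in L5, 2.19 in L6, 2.31 in L7 and 1.49 in L8. In the low boars it was at 2.64 CPM in L1, 3.38 in L2, 4.05 in L3 and 3.50 in L4. The groups did not overlap, and L7, the highest of the high boars, was below L1, the lowest of the low boars. Means were 1.85 ± 0.457 CPM (SD, n = 4) for the high and 3.39 ± 0.579 CPM (SD, n = 4) for the low boars. This gave a log2 fold change of -0.86 (SE 0.27, adjusted p = 0.0443 by edgeR's quasi-likelihood test). A two-sided exact permutation test gave p = 0.0286, the lowest value possible for 4 boars against 4. Groups that did not overlap were seen in 28.3% of all genes tested in this contrast. By p, ATP1B2 ranked 2354 of the 12979 genes.

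ATP4A was at 1.99 CPM in L5, 1.52 in L6, 1.44 in L7 and 1.51 in L8. In the low boars it was at 1.96 CPM in L1, 3.28 in L2, 3.64 in L3 and 3.92 in L4. L1 lay at the level of L5, and the other low boars were well above all high boars. Means were 1.61 ± 0.252 CPM (SD, n = 4) for the high and 3.20 ± 0.867 CPM (SD, n = 4) for the low boars. This gave a log2 fold change of -0.98 (SE 0.29, adjusted p = 0.0361 by edgeR's quasi-likelihood test), and the two-sided exact permutation p was 0.0571. These values rest on 107 to 306 reads of ATP4A per library, and those of ATP1B2 on 87 to 340.

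Both calls were near the threshold and turned on single boars. The direction held in each fit that left out 1 boar, with log2 fold changes from -0.996 to -0.741 for ATP1B2 and from -1.16 to -0.91 for ATP4A. The edgeR adjusted p of ATP1B2 was 0.0616 without L1, 0.0721 without L2, 0.113 without L3, 0.0819 without L4, 0.0709 without L5, 0.0712 without L6 and 0.0953 without L8, and it stayed under the threshold only without L7, at 0.0352. That of ATP4A was 0.0569 without L2, 0.0821 without L3, 0.0777 without L4, 0.0773 without L6, 0.0548 without L7 and 0.0699 without L8. It stayed under the threshold without L1, at 0.0457, and without L5, at 0.0284. Over all genes, the number called moved from 2682 to 1 without L3, 1 without L6, 966 without L1, 1228 without L8 and 1481 without L4, and it was at most 3764, without L5.

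**Figure D2:**
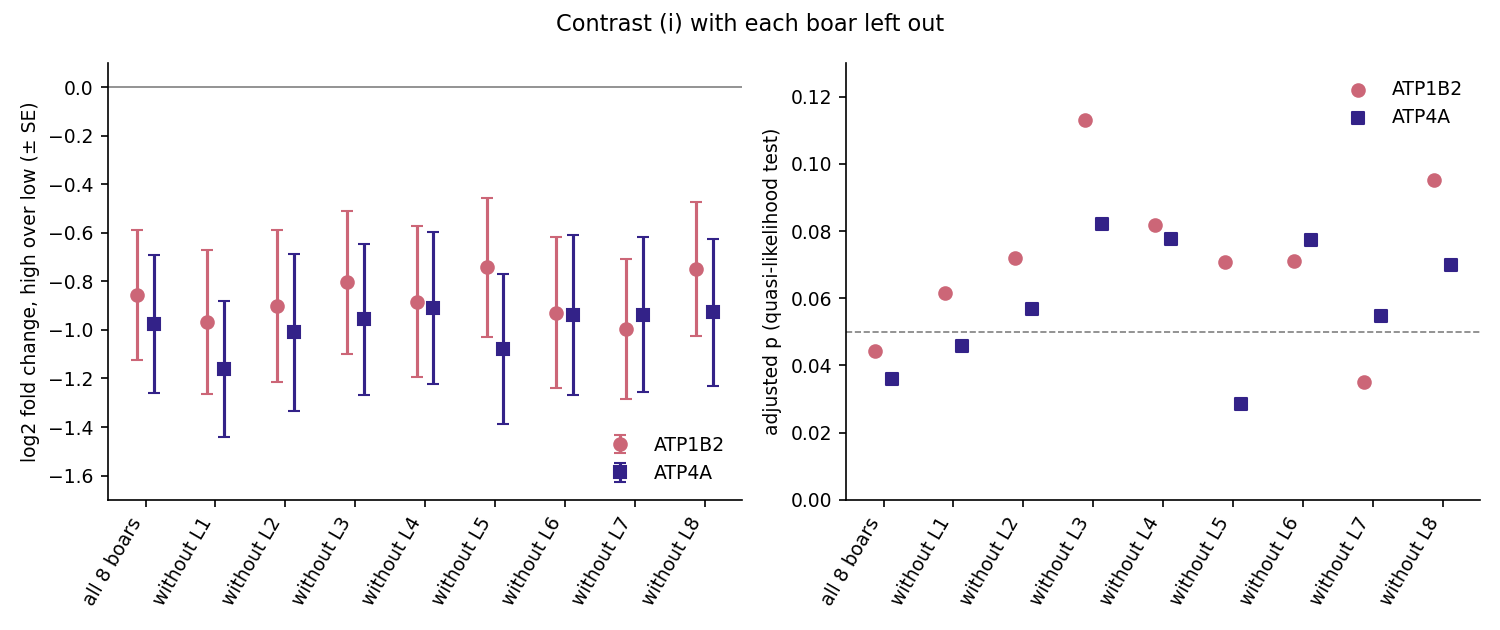
Log2 fold change with its SE (left) and adjusted p of edgeR's quasi-likelihood test (right, dashed line at 0.05) for ATP1B2 and ATP4A in contrast (i), with all 8 boars and with each boar left out (x axes). The fold changes stayed between -1.16 and -0.74, and the adjusted p ran up to 0.113 for ATP1B2 and 0.0821 for ATP4A.

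ATP1B1 was at 18.98 CPM in L5, 36.66 in L6, 33.39 in L7 and 44.18 in L8, and at 26.35 in L1, 31.35 in L2, 31.54 in L3 and 19.96 in L4. The groups overlapped, since L5 was the lowest of the 8 boars and the other high boars were the highest. Its log2 fold change was 0.29 (95% interval -0.22 to 0.80, adjusted p = 0.345 by edgeR's quasi-likelihood test). With each boar left out it ran from 0.13 without L4 to 0.50 without L5, and the edgeR adjusted p was at least 0.0657. ATP12A, at 0.0982 to 0.542 CPM in the high and 0.495 to 0.666 CPM in the low boars, had a log2 fold change of -0.52 (95% interval -1.53 to 0.48, edgeR adjusted p = 0.398 with the 0.3 CPM filter). The lowest ATP12A value was that of L6, from 7 reads.

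Markers of other cells moved in contrast (i) as well. Of the peritubular muscle markers, 2 of 4 tested were lower in the high boars (DES and MYH11), with a median log2 fold change of -1.08 against 0.03 over all genes, and the summed level of the 5 listed genes was 17.18 to 61.3 CPM in the high and 49.08 to 110.5 CPM in the low boars. Of the elongating spermatid markers, 3 of 7 were lower (GAPDHS, TNP2 and PRM1), where 15.8% of all genes were, and the list's median log2 fold change was -0.21. The other members did not pass, among them AKAP4 at 0.31, TNP1 at 0.21 and ODF1 at 0.07. The summed levels of this list overlapped between the groups, with ranges of 11120 to 14450 CPM in the high and 9505 to 13720 CPM in the low boars. Of the spermatocyte markers, 1 of 5 tested was called higher (DMC1), where 4.82% of all genes were. At an unadjusted p under 0.05, which 5415 of the 12979 genes had in either direction by edgeR's quasi-likelihood test, 4 of the 5 were higher. The list's median log2 fold change was 0.504. Its sums were 826.5 to 1356 CPM in the high and 579.1 to 841 CPM in the low boars. None of the 5 tested Sertoli markers was called, with sums of 209.8 to 294.3 CPM in the high and 212.9 to 264.2 CPM in the low boars. No tested marker of spermatogonia (4 genes), round spermatids (3), Leydig cells (5), endothelium (4) or macrophages (3) was called. Of these, 2 round spermatid markers were higher and 1 endothelial marker lower at an unadjusted p under 0.05. The sums of the round spermatid markers were 655.1 to 1031 CPM in the high and 556.5 to 669.7 CPM in the low boars. The part of these cells in the change of ATP1B2 and ATP4A was not tested.

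In contrast (iii), no subunit was called. By edgeR's quasi-likelihood test the called share was 0% of the 12824 genes, with 2540 genes at an unadjusted p under 0.05, and by the likelihood ratio test 64 genes or 0.499% were called. Among the subunits, 1 had an unadjusted p under 0.05 (ATP1B1) and none was called by the likelihood ratio test or DESeq2.

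ATP1B1 was at 33.39 CPM in L7, 97.29 in L13 and 27.38 in L15, and at 31.35 in L2, 30.55 in L9, 29.02 in L10 and 25.92 in L12. L13 alone stood apart, L7 was just above the low boars, and L15 lay among them. The log2 fold change was 0.84 (SE 0.36, adjusted p = 0.245 by edgeR's quasi-likelihood test). Without L13 it was 0.08 (adjusted p = 0.89 by the same edgeR test).

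ATP4A was at 1.44 CPM in L7, 0.519 in L13 and 1.66 in L15, and at 3.28 in L2, 2.05 in L9, 1.17 in L10 and 2.20 in L12. L13 was the lowest of all 21 boars, with 44 reads, and L10 fell among the high boars. The log2 fold change was -0.85 (SE 0.45, adjusted p = 0.298 by edgeR's quasi-likelihood test), and -0.47 without L13.

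ATP1B2 was at 2.31 CPM in L7, 3.86 in L13 and 2.15 in L15, against 2.61 to 3.44 CPM in the low boars. The groups overlapped through L13 alone. Its log2 fold change was -0.22 (95% interval -0.84 to 0.41, adjusted p = 0.664 by edgeR's quasi-likelihood test). With each boar left out it ran from -0.51 without L13 to -0.07 without L15. The log2 fold change of ATP12A was 0.00 (95% interval -0.91 to 0.91) with the 0.3 CPM filter. None of the tested subunits separated the groups, which 16.2% of the genes did. L13 also had the highest sum of the Sertoli markers, 545.8 CPM against a Landrace median of 244.1, and the lowest sum of the elongating spermatid markers, 6247 CPM against a median of 11640. Its sums of the macrophage markers (22.87 CPM, Landrace median 7.687) and endothelial markers (48.8 CPM, median 28.86) were the highest in Landrace too. The part of these cells in the values of L13 was not tested.

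In contrast (ii), by the deposited labels, no subunit was called and the called share was 0% of the 13043 genes by edgeR's quasi-likelihood test, with 158 genes at an unadjusted p under 0.05. No subunit was at an unadjusted p under 0.05, and none was called by the likelihood ratio test or DESeq2. ATP1B1 was at 50.36 CPM in D1, 55.04 in D2, 37.39 in D3, 28.99 in D4 and 43.67 in D5, and at 21.45 in D6, 40.78 in D7 and 29.04 in D9. The groups overlapped, with D4 of the boars labelled High at the level of D9. The log2 fold change was 0.50 (95% interval -0.06 to 1.06, edgeR adjusted p = 1).

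ATP1B2 ranged from 2.24 to 4.01 CPM in the boars labelled High and from 1.93 to 3.49 in those labelled Low. ATP4A ranged from 1.39 to 2.48 CPM and from 1.38 to 2.28 CPM. Their log2 fold changes were 0.04 (95% interval -0.67 to 0.75) and 0.15 (95% interval -0.60 to 0.90), both with an edgeR adjusted p of 1. ATP12A was at 1.22 CPM in D5, its highest value in any boar, and at 0.179 to 0.712 CPM in the other Duroc boars. In 1.38% of the genes the labelled groups did not overlap, and none of the tested subunits was among them.

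The difference between contrast (i) and contrast (ii) was tested directly as the interaction of breed and labelled group. It was -1.10 for ATP4A (95% interval -1.99 to -0.22, edgeR adjusted p = 0.329) and -0.88 for ATP1B2 (95% interval -1.72 to -0.03, edgeR adjusted p = 0.329). Both of these had an unadjusted p under 0.05. For ATP1B1 it was -0.18 (95% interval -0.94 to 0.59, edgeR adjusted p = 0.79). None passed the adjusted threshold by the quasi-likelihood test, which 0% of the 12920 genes did, though 1946 genes had an unadjusted p under 0.05. None passed it by the likelihood ratio test or DESeq2 either.

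Between the breeds no subunit was called. ATP1B1 had a median of 39.08 CPM in the Duroc boars (21.45 to 55.04) and 30.55 CPM in the Landrace boars (18.98 to 97.29). ATP1B2 had medians of 3.08 and 2.64 CPM, and ATP4A of 1.95 and 1.96 CPM. The log2 fold changes of Duroc over Landrace were 0.14 for ATP1B1 (95% interval -0.36 to 0.63), 0.07 for ATP1B2 (-0.35 to 0.48) and -0.12 for ATP4A (-0.68 to 0.44), with edgeR adjusted p-values of at least 0.997. Without L13, that of ATP1B1 was 0.36. By the same test 2.88% of the 13126 genes were called, 1.35% higher and 1.53% lower in Duroc. None of the subunits had an unadjusted p under 0.05, and none was called by the likelihood ratio test or DESeq2.

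**Figure D3:**
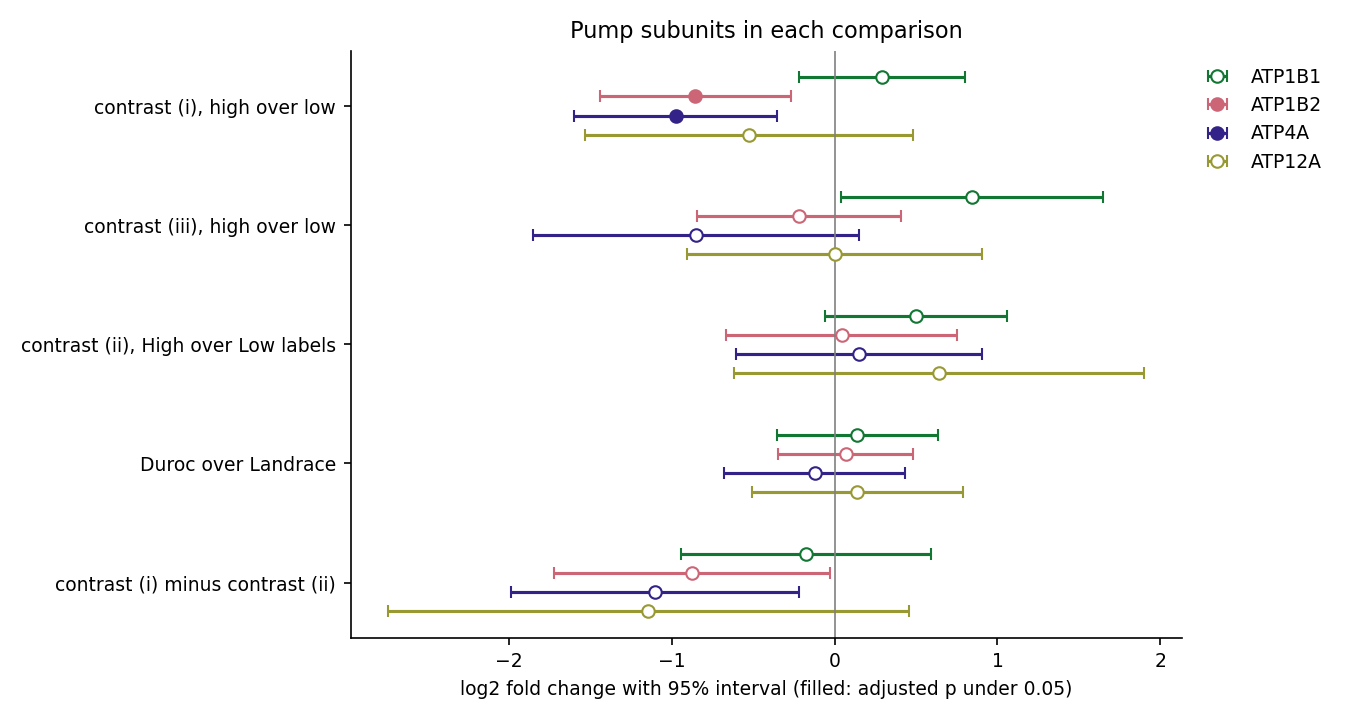
Log2 fold change with its 95% interval (x axis) of 4 subunits in each comparison (y axis), from edgeR's quasi-likelihood fits, with filled points for an adjusted p under 0.05; ATP12A comes from the fit with the 0.3 CPM filter. Filled points are those of ATP1B2 (-0.86) and ATP4A (-0.98) in contrast (i).

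Ordered by mean level, ATP1B2 ran from the low day 0 boars (3.39 CPM) through the low change (3.21), Duroc High (2.97), Duroc Low (2.88) and high change boars (2.77) to the high day 0 boars (1.85). Each group overlapped with its neighbours in this order. Low day 0 and low change share L2, and high day 0 and high change share L7. Where such a pair are neighbours, here or in the orders below, their overlap was given by the shared boar. ATP4A had a similar order, from low day 0 (3.20 CPM) and low change (2.18) through Duroc High (1.98) and Duroc Low (1.78) to high day 0 (1.61) and high change (1.21), again with overlap between neighbours. ATP1B1 ran from high change (52.69 CPM, with L13) through Duroc High (43.09), high day 0 (33.30), Duroc Low (30.42) and low change (29.21) to low day 0 (27.30), with overlap between neighbours. Without L13 the high change mean of ATP1B1 was 30.38 CPM (n = 2), at the level of Duroc Low.

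The number of ATP1B1 reads per ATP1B2 read within a library needs no normalization. This ratio was chosen after the values were seen and is given without a test. It was 13.3 in L5, 16.8 in L6, 14.5 in L7 and 29.6 in L8, against 9.98 in L1, 9.27 in L2, 7.79 in L3 and 5.71 in L4. It was 14.5 in L7, 25.2 in L13 and 12.7 in L15, against 9.27 in L2, 8.87 in L9, 8.53 in L10 and 9.92 in L12. The high boars of both Landrace contrasts thus lay above all low boars, by 2.19 and 1.83 times on the geometric mean. The contrasts share L2 and L7, and ATP1B2 alone already separated the groups of contrast (i). Of single genes, 28.3% separated the groups of contrast (i) and 16.2% those of contrast (iii). How many ratios of other gene pairs do so was not tested. In the Duroc boars the ratio was 12.4 to 24.6 with the High label and 8.32 to 12.6 with the Low label, with D1 and D7 both at 12.6. A ratio does not say which of the genes changed.

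**Figure D4:**
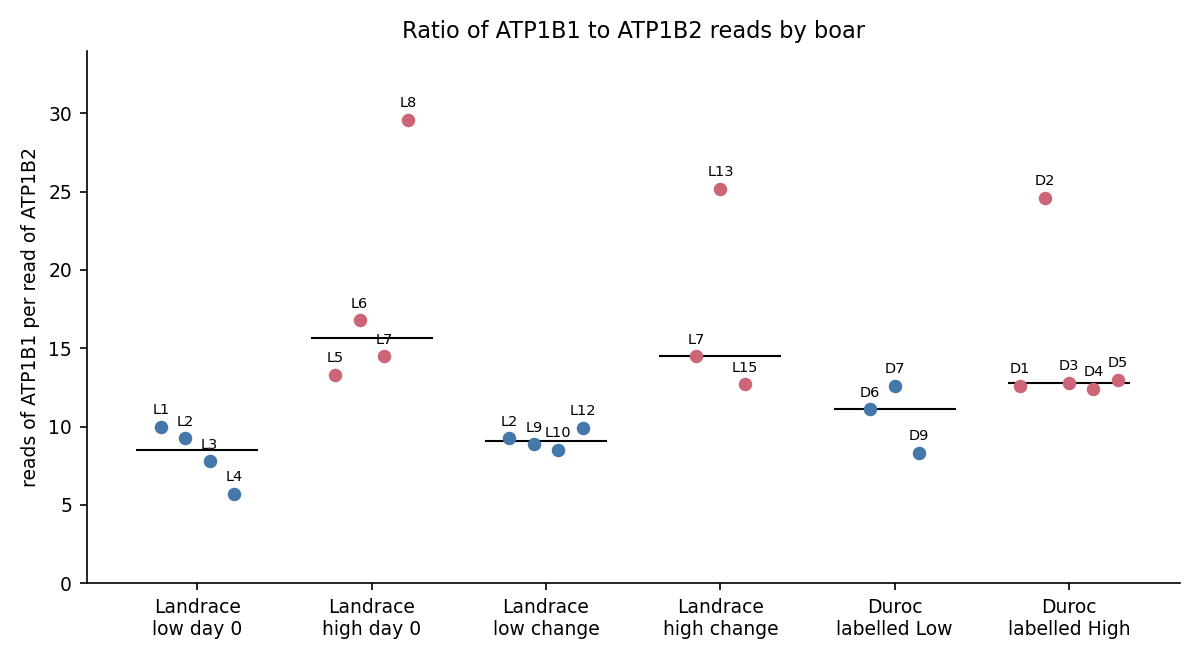
Reads of ATP1B1 per read of ATP1B2 (y axis, linear) in each boar by group (x axis), with lines at the group medians and blue for low and red for high groups. The Landrace high boars lay at 12.7 or more and the Landrace low boars at 9.98 or less, while the labelled Duroc groups met at 12.6.

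Across boars, ATP1B1 followed the summed Sertoli cell markers closely in both breeds. Over the 13 Landrace boars Pearson's r of the log2 levels was 0.928 (permutation p = 0.00018, 0.00972 after Benjamini-Hochberg adjustment over 54 relations) and Spearman's rho 0.841 (permutation p = 0.00052, adjusted 0.0281). Without L13 and L7, the boars farthest from the median of the marker sum, r was 0.842. Taken as deviations from the group means, it was 0.925. Over the 8 Duroc boars r was 0.923 (permutation p = 0.00163, adjusted 0.044) and rho 0.881 (permutation p = 0.00705, adjusted 0.101), and without D1 and D2 r was 0.884. The sum covers 7 genes, of which CLDN11, SOX9, DMRT1, WT1 and FSHR made up nearly all. CLDN11 was the largest part, with a median of 117 CPM over all boars (93.8 to 311), while WT1 ranged only from 20.6 to 30.2 CPM. The relation of ATP1B1 to each single marker was not tested.

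ATP1B2 followed the peritubular markers less tightly. In Landrace r was 0.740 (permutation p = 0.00337, adjusted 0.0464) and rho 0.522 (permutation p = 0.0692, adjusted 0.38), with r of 0.535 without L8 and L3 and 0.383 as deviations from the group means. In Duroc r was 0.838 (permutation p = 0.0138, adjusted 0.0806) and rho 0.881 (permutation p = 0.00751, adjusted 0.101), with r of 0.656 without D1 and D6. Other marker lists came close. In Duroc r of ATP1B2 was 0.822 with the macrophage and 0.797 with the spermatogonia markers (adjusted permutation p of 0.0806 for both). In Landrace these were 0.357 and 0.351. With the spermatocyte markers r was -0.653 in Landrace and -0.56 in Duroc, and with the endothelial markers 0.619 and 0.63. In Landrace ATP1B2 also ran against the round spermatid markers, with r of -0.739 (permutation p = 0.00344, adjusted 0.0464), rho of -0.632 (permutation p = 0.0242, adjusted 0.186) and r of -0.542 without L8 and L3. The r in Duroc was -0.666 (permutation p = 0.0733, adjusted 0.264). ATP4A passed the adjusted threshold with no marker list. Its r with the peritubular markers was 0.796 in Duroc (permutation p = 0.0335, adjusted 0.129) and 0.307 in Landrace (permutation p = 0.3, adjusted 0.491). Its relation to the spermatocyte markers was negative in both breeds. In Landrace r was -0.464 (permutation p = 0.109, adjusted 0.294) and rho -0.720 (permutation p = 0.00743, adjusted 0.101), with r of -0.456 without L8 and L3. In Duroc r was -0.767 (permutation p = 0.0122, adjusted 0.0806) and rho -0.833 (permutation p = 0.0148, adjusted 0.16), with r of -0.811 without D2 and D1. Its r with the Sertoli markers in Landrace was -0.752 (permutation p = 0.00945, adjusted 0.0806), which came down to -0.235 without L13 and L7 and so rested on those boars, and 0.0223 in Duroc (permutation p = 0.956, adjusted 0.974).

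**Figure D5:**
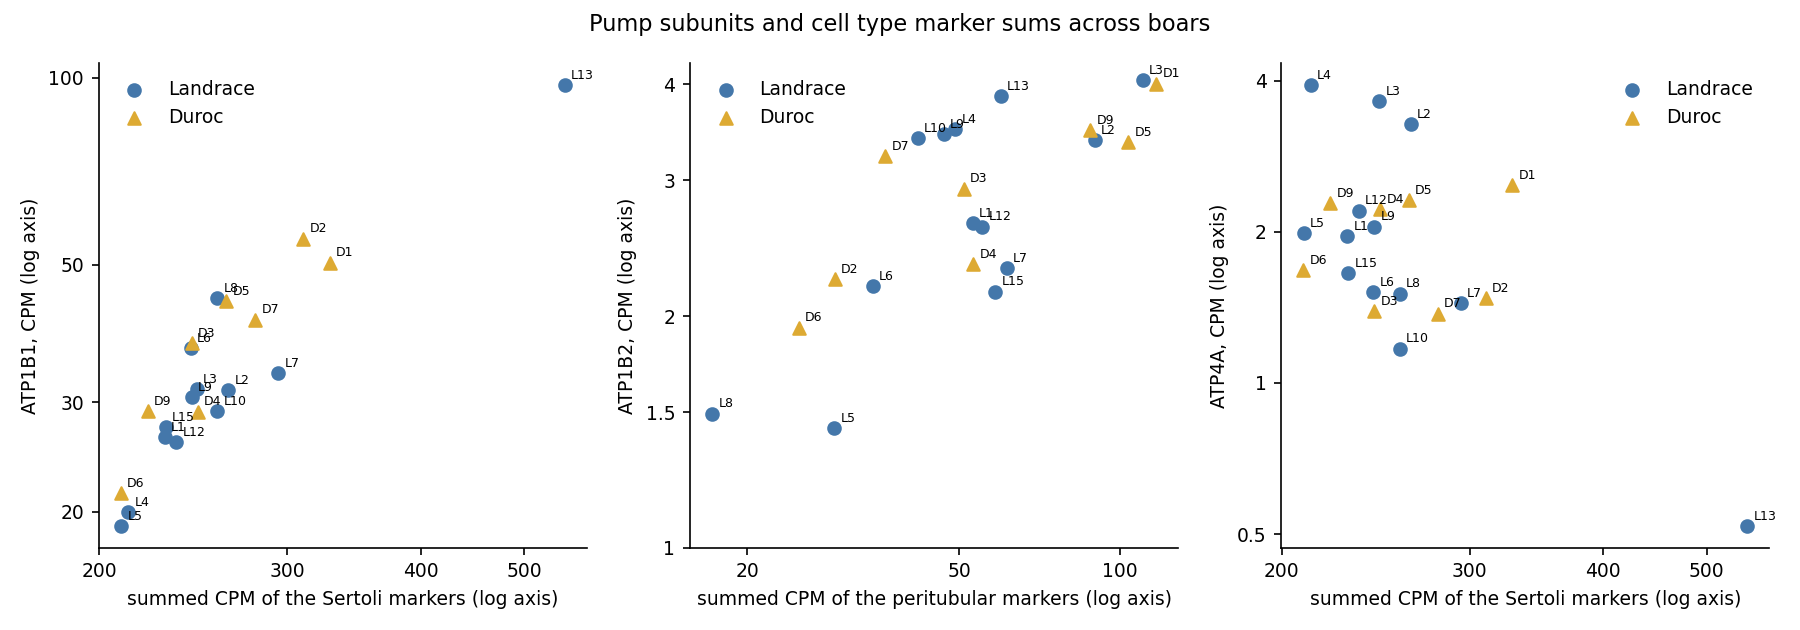
Level of a subunit (y axes, CPM, log scale) against the summed CPM of a cell type marker list (x axes, log scale) in the 13 Landrace (circles) and 8 Duroc boars (triangles). ATP1B1 rises with the Sertoli sum in both breeds (r of 0.928 and 0.923), ATP1B2 more loosely with the peritubular sum (0.740 and 0.838), and ATP4A against the Sertoli sum rests on L13 and L7.

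Among the subunits themselves, ATP1B1 and ATP4A ran in opposite directions in Landrace, with r of -0.741 (permutation p = 0.00839, adjusted 0.0503 over 6 relations) and rho of -0.538 (permutation p = 0.0604, adjusted 0.362). Without L13 and L5 r was -0.480. In Duroc r was -0.0642 (permutation p = 0.886, adjusted 0.886). ATP1B1 and ATP1B2 had r of 0.231 in Landrace (permutation p = 0.462, adjusted 0.693) and 0.462 in Duroc (permutation p = 0.249, adjusted 0.532). The r in Landrace turned to -0.560 without L13 and L5, but was 0.669 as deviations from the group means. ATP1B2 and ATP4A had r of 0.114 in Landrace (permutation p = 0.708, adjusted 0.85) and 0.427 in Duroc (permutation p = 0.266, adjusted 0.532).

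The genes most like each subunit over the 13 Landrace boars were found by r of log2 CPM over all tested genes, as a description. For ATP1B1 they were METTL14, a subunit of the RNA adenosine methyltransferase (r 0.974), the nuclear receptor NR5A2 (0.972) and AHCYL1, a regulator of calcium release and bicarbonate transport (0.967). Their r over the 8 Duroc boars was 0.930, -0.287 and 0.522, so NR5A2 did not follow ATP1B1 there. For ATP1B2 they were the lipid kinase PIK3C2B (0.902 in Landrace and 0.552 in Duroc), the ciliary kinase NEK8 (0.879 and 0.720) and the nucleotide exchange factor ARHGEF25 (0.877 and 0.898). For ATP4A they were the transporter SLC12A8 (0.951 and 0.378), FBXO39 (0.949 and 0.639) and ENSSSCG00000008984 (0.941 and 0.466). These genes were picked as the highest of many, and all points share library and depth.

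No gene overlapped a subunit in the RefSeq annotation, but some lay close. HAUS5 begins 4 bp after ATP4A, and reads were counted by strand. It was at 8.03 to 15.9 CPM, and its log2 fold change in contrast (i) was -0.40 (SE 0.19, adjusted p = 0.131 by edgeR's quasi-likelihood test). The long noncoding RNA LOC110261280 lies 4859 bp on the other side of ATP4A, and no value is given for it. TMEM147, 2962 bp away on that side, was lower in the high boars at -0.77 (SE 0.20, edgeR adjusted p = 0.0246). NME7 ends 266 bp before ATP1B1 and had a log2 fold change of 0.51 (SE 0.19, edgeR adjusted p = 0.0661). TFDP1 lies 1700 bp from ATP4B and was lower in the high boars at -0.64 (SE 0.19, edgeR adjusted p = 0.0403). The edgeR adjusted p of TMEM147 was 0.0648 without L1, 0.0523 without L3 and 0.0599 without L6, and that of TFDP1 stayed under 0.05 only without L4, at 0.0496, and without L7, at 0.0145. How far reads of these genes enter the counts of the subunits was not tested.

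Partner genes of the pumps were taken from lists. Of 12 accessory and interacting proteins, the FXYD and NKAIN families and ATP1B4, 5 were matched to a row and 1 was tested. This was NKAIN2, named for its interaction with the Na,K-ATPase beta 1 subunit. It was higher in the high boars of contrast (i), at 2.67 to 4.15 CPM against 1.70 to 2.28 CPM, with a log2 fold change of 0.78 (SE 0.25, adjusted p = 0.0473 by edgeR's quasi-likelihood test). The call held in 1 of the 8 fits that left out a boar (without L8), and the edgeR adjusted p in the others ran from 0.0525 without L7 to 0.141 without L3. Genes called higher were 4.82% of all genes in this contrast. In contrast (iii) its log2 fold change was 0.42 (edgeR adjusted p = 0.396), and in contrast (ii) 0.84 (edgeR adjusted p = 1).

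Of 18 transporters that use or share the sodium gradient, 15 were tested in contrast (i), and 2 were lower in the high boars, none higher. Genes called lower were 15.8% of all genes in this contrast, and the list's median log2 fold change was -0.01, against 0.03 over all genes, so the list as a whole did not stand out by either value. SLC12A7, a potassium-chloride cotransporter, was at 0.306 to 0.603 CPM in the high and 1.27 to 1.68 CPM in the low boars, a log2 fold change of -1.71 (SE 0.32, adjusted p = 0.0208 by edgeR's quasi-likelihood test). SLC20A2, a sodium-phosphate cotransporter, was at 4.14 to 4.67 CPM and 5.90 to 8.57 CPM, with -0.73 (SE 0.20, edgeR adjusted p = 0.0313). Both separated the groups, which 28.3% of all genes tested in this contrast did. SLC12A7 passed the filter on low counts through its low boars and was not tested without any of them, and without L6 its edgeR adjusted p was 0.0532. That of SLC20A2 was 0.0721 without L3, 0.0689 without L4, 0.0731 without L6 and 0.0575 without L8. The exchanger SLC8B1 (-0.87, edgeR adjusted p = 0.0636) did not pass. In contrasts (iii) and (ii) none of the list was called by edgeR's quasi-likelihood test, with 1 and 0 genes at an unadjusted p under 0.05.

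Between the breeds, 1 of 15 genes of this list was called, where 2.88% of all genes were, with a list median of 0.10. SLC4A4, a sodium-bicarbonate cotransporter, was at 16.1 to 39.8 CPM in the 8 Duroc boars and at most 5.88 CPM in the 13 Landrace boars. Its log2 fold change was 3.19 (SE 0.19, adjusted p = 6.61e-11 by edgeR's quasi-likelihood test), and 3.06 to 3.33 with each boar left out.

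Of 21 subunits of the vacuolar proton pump, an ATPase of another family that acidifies vesicles such as the acrosome, 13 were tested in contrast (i). There 2 were lower in the high boars and none higher, with a list median of 0.06 against 0.03 over all genes. The share of this list called lower was close to that over all genes, 15.8%. ATP6V0D1 was at 6.22 to 12.8 CPM in the high and 16.2 to 20.9 CPM in the low boars, a log2 fold change of -0.92 (SE 0.23, adjusted p = 0.023 by edgeR's quasi-likelihood test). ATP6V0B was at 5.95 to 10.2 CPM and 12.9 to 13.7 CPM, with -0.61 (SE 0.20, edgeR adjusted p = 0.0495). Both encode subunits of the membrane sector. The edgeR adjusted p of ATP6V0D1 was 0.053 without L3 and 0.0552 without L6, and that of ATP6V0B stayed under 0.05 only without L5, at 0.046, and without L7, at 0.0404. The catalytic sector genes ATP6V1B2 (0.39, edgeR adjusted p = 0.0509) and ATP6V1A (0.36, edgeR adjusted p = 0.059) did not pass. Both were called higher by the likelihood ratio test (adjusted p = 0.0378 and 0.0459) and by DESeq2 (adjusted p = 0.0282 and 0.0368). Of 9 alternatives, 6 called ATP6V1B2 and 2 called ATP6V1A. Of the 8 fits that left out a boar, 1 called each of them. None of the list was called in contrast (iii), in contrast (ii) or between the breeds, with 0, 0 and 2 genes at an unadjusted p under 0.05.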

How the data were processed

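Testis RNA of 21 boars was sequenced with a stranded mRNA kit, 1 library per boar. The authors trimmed reads with Trimmomatic 0.36, aligned them with STAR to Sscrofa 11.1 and counted them by strand with HTSeq on Ensembl genes, and the deposited values are raw read counts per gene. Rows naming no gene (29.42 to 38.99% of a library's counted reads) were left out. Symbols came from an identifier table that named 14857 of the 25880 genes. Some genes of the family are not reported here.

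The main tool was edgeR 4.0.16 under R 4.3.3 (TMM, quasi-likelihood test, Benjamini-Hochberg adjustment over all genes tested, threshold 0.05). The study used a likelihood ratio test, run here as an alternative. The filter asked for 1 CPM or more in 4 or more libraries of a contrast, and in 8 or more for the breed comparison and the interaction. Groups came from the deposited labels. Standard errors are the log2 fold change divided by the root of its test statistic, and intervals are 95%. Single genes were compared by two-sided exact permutation tests over boars, and correlations of log2 CPM (prior count 2) by 100000 permutations. Other alternatives were DESeq2 1.42.0, limma-voom (limma 3.58.1), relative log expression, other filters, a robust fit, other sets of boars and leaving out each boar. The fits were tested on simulated data. Pairs of boars within a group correlated at 0.95 to 0.985 and none were duplicates.

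The members and gene lists were chosen with earlier results of these data known. The text names the members, up to 4 genes with the smallest p per list, the 3 genes most like each tested member and genes within 5000 bp. The read ratio and the marker relations were added after the values were seen.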

Additional observations from a re-analysis of the deposited data

Results flagged for a closer look

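Of the 20 sets of 4 or more boars examined for a value far from the others in its group, 3 held one, where chance gives about 1. The high change group was too small for this, and the Landrace boars as a whole were not examined. L13 was therefore in none of these sets. Among the high boars of contrast (i), L5 had 1.99 CPM of ATP4A, against 1.44 to 1.52 CPM in the others. Among the low change boars of contrast (iii), L12 had 2.61 CPM of ATP1B2, against 3.38 to 3.44 CPM. In the same group, L10 had 0.22 CPM of ATP12A, from 12 reads, against 0.616 to 0.674 CPM.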

How the results depend on the processing

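In contrast (i), 2 subunits were called with the likelihood ratio test, DESeq2, relative log expression, the 0.3 CPM filter, the robust fit and limma-voom. It was 1 subunit with no filter other than 1 count, 0 without boars L2 and L7, 0 with all 13 Landrace libraries in 1 fit, and 0 to 1 when each boar was left out. Over these 9 alternatives the adjusted p ran from 0.0241 to 0.0648 for ATP1B2 and from 0.0142 to 0.0943 for ATP4A, and both stayed lower in the high boars. The exact permutation p of ATP4A was 0.0286 with library totals in place of TMM. In contrasts (iii) and (ii), between breeds and for the interaction, 0 subunits were called under every alternative run. Over all genes, contrast (iii) went from 0 called to 116 with DESeq2, the interaction to 6, and the breed comparison from 378 to 204 with the boars of contrast (i) and Duroc only.

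Directions that turned were all of values not past the threshold. Leaving out each boar, ATP1B2 in contrast (ii) ran from -0.18 to 0.21 (-0.177 without D6, -0.115 without D1, -0.00444 without D5) and ATP4A from -0.00438 (without D7) to 0.37. ATP1B2 between breeds ran from -0.00395 (without D1) to 0.14, and the interaction of ATP1B1 from -0.51 to 0.02 (0.00829 without L5, 0.0197 without D6). The r of ATP1B1 and ATP1B2 in Landrace turned to -0.56 without L13 and L5, but was 0.669 as deviations from group means. The r of ATP1B2 and ATP4A in Landrace turned to -0.395 as deviations from group means. The causes were not tested. No paired analysis was possible because the boars are separate animals with running numbers only.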
